A study of Mus musculus with 32 samples.

Results

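The genes described here encode the nuclear subunits of the oxidative phosphorylation (OXPHOS) complexes and several of their assembly factors, measured in brown adipose tissue of mice lacking ChREBP, the transcription factor encoded by Mlxipl that responds to glucose. Members were taken by name: every probe whose gene name starts with Nduf, Uqcr, Cox4 to Cox8 or Atp5, or is Sdha, Sdhb, Sdhc or Sdhd. The rule found 143 probes on the array, of which 137 were among the 37304 probes of the deposited table. These 137 probes named 91 genes of 24521 in that table; a further name, Cox8c, had no probe past the filter on dim probes. Apart from that filter, the naming rule used no measured value, although earlier results of these data were known.

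The 4 groups of 8 one-colour arrays, 1 sample per array and 32 in all, were compared. All were male C57BL6/J mice on a regular diet that were fasted for 24 hours and then refed for 18 hours with food and water containing 20% glucose. Total ChREBP-KO mice were Mlxipl-null and lacked both the α and the β isoform, and ChREBPβ-KO mice carried a CRISPR/Cas9 deletion of the exon used by the β isoform alone. Each KO group had its own WT group, called here total-line WT and ChREBPβ-line WT. Both deletions were present in all tissues, so nothing in the design separates an effect within brown adipocytes from one reaching them from elsewhere. The labels number the arrays of a group from 1 to 8 without stating an age or tying an array to a litter, and p-values measure the spread between these arrays.

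The respiratory chain passes electrons from NADH through complex I, or from succinate through complex II, to ubiquinone, and then through complex III and cytochrome c to complex IV, where oxygen is reduced. Complexes I, III and IV pump protons across the inner mitochondrial membrane, and complex V, the ATP synthase, lets them return while it makes ATP. Brown adipose tissue is packed with mitochondria and burns fuel for heat because the uncoupling protein Ucp1 gives protons another way back. Most subunits are encoded in the nucleus and a few in mitochondrial DNA; the 13 mitochondrial protein genes had no probe under the names searched.

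Levels are log2 array values after quantile normalization, each gene being read from its brightest probe, and a difference between groups is a log2 fold change from a limma model over all 37306 probes kept, called at an adjusted p under 0.05 over those probes. Shares of all genes refer to the brightest probes of the 24523 genes tested. Values of different genes come from different probes and are not compared as amounts of transcript. Between 64.4% and 71.1% of the spots on an array were well above background and no spot was saturated. The brightest probe of 86 of the 91 genes passed a filter for signal well above background on every array. Of the 91, 52 (57.1%) were within the brightest 1% of all probes. The brightest Mlxipl probe averaged 16.15 in total-line WT and 13.67 in total ChREBP-KO, a fold change of -2.48 (adjusted p = 1.97e-24), and fell by 1.5 on the log2 scale in ChREBPβ-KO (adjusted p = 6.98e-17). The other Mlxipl probes moved less or were not called: one gave -0.77 in total ChREBP-KO and -1.14 in ChREBPβ-KO (adjusted p = 2.91e-07 and 2.45e-08), and the other 0.14 and -0.08 (adjusted p = 0.068 and 0.625). Brown adipocyte markers were bright in the 4 groups: Ucp1 lay between 18.22 and 18.62 on the 32 arrays. A set of 10 skeletal muscle markers separated the lines. Their mean per array ran from 12.5 to 16.1 in total-line WT and from 14.2 to 15.7 in total ChREBP-KO, but from 5.66 to 11.9 in ChREBPβ-line WT and from 5.73 to 11.3 in ChREBPβ-KO. None of the 10 was called between a KO group and its own WT by limma, and none had an unadjusted p under 0.05 either. All 10 were nevertheless lower in ChREBPβ-KO than in its WT, with a median of -0.73, and the total-line median was 0.09. The limma fit shares its spread over the 4 groups. The SD of the muscle mean was 2.79 in ChREBPβ-line WT and 1.94 in ChREBPβ-KO, but 1.14 in total-line WT and 0.493 in total ChREBP-KO. The absence of calls therefore does not show equal muscle content within a line. Of 8 liver markers 1 was higher and 1 lower in total ChREBP-KO, of 5 lymphocyte markers 1 was higher, and neither of 2 erythroid markers was called (1 at an unadjusted p under 0.05). In whole tissue, more cells of a type and more RNA per cell cannot be told apart.

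In total ChREBP-KO, OXPHOS transcripts were mostly higher than in WT. Of the 91 genes, 69 were called higher and 3 lower, with 19 not called, and the median log2 fold change was 0.23. The share called higher was 75.8% of the members against 23.0% of all genes tested, and the share called lower was 3.3% against 21.1%. Over all genes the median change was 0.01. The changes were small in size: among the subunits of the 5 complexes the highest was 0.61, a 1.52-fold difference. For 43 members (47.3%) the lowest KO array lay above the highest WT array, compared with 8.17% of all genes. For 1 member, Ndufaf4, every KO array lay below every WT array (8.42% of all genes). The median was 0.16, 0.22, 0.24 and 0.26 within wash batches 1 to 4, and 79 to 84 of the 91 differences were positive in each.

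The size of the shift depended on the scaling. With Agilent's processed signal set to each array's 75th percentile, 41 members were called higher and 4 lower and the median fell to 0.13, while 20.9% of all genes were called higher and 23.3% lower. Of the 69 genes higher after quantile normalization, 40 were also higher under that scaling, and 81 of the 91 changes were positive. With the per-array means of the muscle and liver markers as covariates, 68 members were higher and 2 lower.

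**Figure D1:**
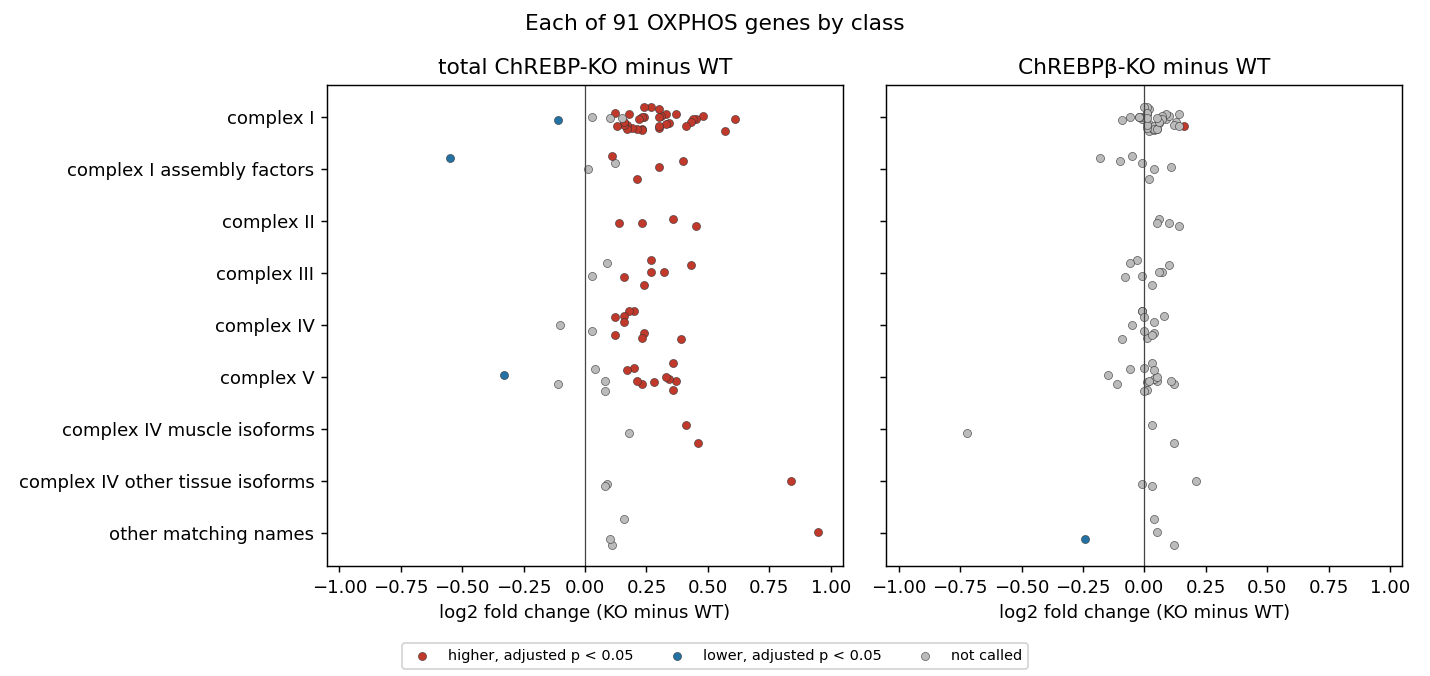
Log2 fold change of each of the 91 OXPHOS genes (x axis, KO minus WT) by class (y axis) in total ChREBP-KO (left) and ChREBPβ-KO (right). Each point is 1 gene, with those higher at an adjusted p under 0.05 in red, those lower in blue and those not called in grey; 69 points are red on the left and 1 on the right.

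Promoter windows of a few members are shown so that sequence can be set beside these changes. RefSeq windows on GRCm38.p6, running from 250 bases before to 50 bases after a transcript start, were held for 74 of the 91 genes. The windows below belong to Ndufs7, Cox7a1, Uqcrc1 and Ndufaf4. Ndufs7 is the complex I core subunit with the highest change, and Cox7a1 the muscle isoform of complex IV with the highest. Ndufaf4 is the assembly factor that fell. Uqcrc1 was picked for its match to the motif marked below, as the member with a match that rose most. It also had the highest change in complex III. These windows therefore do not show how often the motif occurs. Capitals mark the palindromic motif of NRF1, nuclear respiratory factor 1, as it was searched; Ndufs7 and Cox7a1 have no match. They lie at chr10:80249199-80249498 (Ndufs7), chr7:30183921-30184220 (Cox7a1), chr9:108936398-108936697 (Uqcrc1) and chr4:24897833-24898132 (Ndufaf4), all on the plus strand, and are written 5′ to 3′.
Ndufs7: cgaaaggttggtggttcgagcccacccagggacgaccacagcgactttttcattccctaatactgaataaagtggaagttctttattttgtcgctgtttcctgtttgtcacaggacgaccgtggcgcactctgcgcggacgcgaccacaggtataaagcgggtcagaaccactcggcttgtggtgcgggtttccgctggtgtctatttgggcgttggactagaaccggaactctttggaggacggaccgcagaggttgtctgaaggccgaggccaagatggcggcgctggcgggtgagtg
Cox7a1: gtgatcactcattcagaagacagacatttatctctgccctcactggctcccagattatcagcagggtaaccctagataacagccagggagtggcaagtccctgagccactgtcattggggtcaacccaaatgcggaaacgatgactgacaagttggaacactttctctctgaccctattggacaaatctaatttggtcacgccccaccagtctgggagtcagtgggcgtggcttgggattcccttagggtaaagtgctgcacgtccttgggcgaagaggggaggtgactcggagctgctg
Uqcrc1: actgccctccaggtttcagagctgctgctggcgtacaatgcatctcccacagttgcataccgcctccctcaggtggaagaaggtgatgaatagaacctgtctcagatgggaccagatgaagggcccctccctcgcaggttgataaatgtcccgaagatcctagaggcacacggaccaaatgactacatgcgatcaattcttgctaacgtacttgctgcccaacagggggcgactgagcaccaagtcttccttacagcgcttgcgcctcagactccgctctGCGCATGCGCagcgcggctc
Ndufaf4: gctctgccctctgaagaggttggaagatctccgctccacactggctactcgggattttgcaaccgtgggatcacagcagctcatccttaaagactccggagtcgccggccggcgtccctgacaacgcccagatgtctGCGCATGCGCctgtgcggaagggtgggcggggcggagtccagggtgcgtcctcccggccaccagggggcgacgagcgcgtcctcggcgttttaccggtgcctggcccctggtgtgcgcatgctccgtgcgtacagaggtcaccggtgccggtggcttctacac

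The NRF1 letters stood in the windows of 7 of the 74 genes (9.46%), compared with 290 of 27025 genes with a window (1.07%). Both directions of change were found among the 7: Uqcrc1 had the letters and was higher in total ChREBP-KO, and Ndufaf4 had them and was lower. The letters were present in 3 of the 58 members higher in total ChREBP-KO (5.17%) and in 4 of the 16 others (25%). The E-box CACGTG was found in 9.46% of the members and 8.09% of all genes. A pair of perfect E-boxes spaced by 5 bases, the idealized form of the carbohydrate response element that ChREBP binds, occurred in none of the 27025 genes' windows, so that this strict form separates nothing here. The letters CCGGAAGT of ETS factors were present in 6.76% of members and 4.31% of all genes, and TCAAGGTCA of the estrogen-related receptors in 2.7% and 0.466%. Both strands were searched, and a match describes letters in the window and no binding.

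Complex I had the most members and 32 of its 36 subunits were higher in total ChREBP-KO, with a median of 0.24, while 1 was lower. All 7 of the core subunits encoded in the nucleus, which hold the flavin and the iron-sulfur clusters or form the ubiquinone site, were called higher, from 0.13 to 0.61 with a median of 0.37. Of the 29 accessory subunits, 25 were higher and 1 was lower, with a median of 0.23. The lower one was Ndufa1, at -0.11 with an SE of 0.05 (adjusted p = 0.0459), named because it was the lone exception. Its limma call was lost with the muscle and liver marker covariates (-0.11, adjusted p = 0.0528). Under the processed-signal scaling it was kept (-0.21, adjusted p = 0.00652). With the processed signal, 19 of the 36 were higher and 1 was lower.

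Ndufs7, a core subunit that carries the iron-sulfur cluster next to ubiquinone, had the highest change of any subunit of the 5 complexes. Its level was 16.09 at lowest, 16.19 at the median and 16.44 at highest over the 8 total-line WT arrays, and 16.61, 16.90 and 16.91 over the 8 total ChREBP-KO arrays. The groups did not overlap, and the log2 fold change was 0.61 with an SE of 0.05 (adjusted p = 1.56e-11). Under the processed-signal scaling it was 0.44 (adjusted p = 1.35e-06). Ndufb10, an accessory subunit of the membrane arm, was nearly as high. Its levels were 16.35, 16.59 and 16.69 in total-line WT and 17.00, 17.15 and 17.19 in total ChREBP-KO, again without overlap (0.57, SE 0.04, adjusted p = 3e-12). Ndufv1, which binds NADH and flavin, had 16.68, 16.77 and 16.88 in WT and 17.12, 17.18 and 17.30 in KO (0.41, SE 0.03, adjusted p = 1.79e-11). Every KO array of Ndufv1 thus lay above every WT array.

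Ndufs1, the core subunit with the smallest change in the group, had 15.66, 15.81 and 16.03 in WT and 15.84, 15.92 and 16.06 in KO, and its groups overlapped (0.13, SE 0.05, adjusted p = 0.0298). The call was lost without total-line WT replicate 2 (0.11, adjusted p = 0.0739) and under the processed-signal scaling (0.06). Ndufb8, an accessory subunit whose protein is used as the complex I marker in OXPHOS antibody mixtures, was 17.16, 17.26 and 17.32 in WT and 17.31, 17.39 and 17.44 in KO (0.12, SE 0.04, adjusted p = 0.00777). Its direction turned under the processed-signal scaling, where the change was -0.01.

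Probes of 3 complex I genes were called in opposite directions in total ChREBP-KO, and in each the lower call came from a dimmer probe. For Ndufb2 the probes at chr6:39548271-39548330 and chr6:39548336-39549425 (mm9) both gave 0.30, and a dim probe at chr6:39552854-39552913, whose level averaged 6.33 in WT, gave -0.50. For Ndufb8 the bright probe at chr19:44624744-44624803 gave the 0.12 above and a dimmer one at chr19:44623218-44623277, averaging 10.36 in WT, gave -0.41. For Ndufab1, the mitochondrial acyl carrier protein, the probe at chr7:129234361-129234420 gave 0.23 and the dimmer one at chr7:129231667-129231726, averaging 12.38, gave -0.23. The files do not say which transcripts these dimmer probes read. Over all 137 member probes, 89 were higher and 7 lower.

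Complex I assembly factors, which build the complex without staying in it, were divided. Of 7, 4 were higher, 1 was lower and 2 were not called, with a median of 0.12. Ndufaf4 was the lower one: its level was 12.72, 12.87 and 12.97 in total-line WT and 12.07, 12.24 and 12.64 in total ChREBP-KO, without overlap (-0.55, SE 0.07, adjusted p = 2.58e-07). This was the largest fall of any member, and it was -0.62 under the processed-signal scaling. Ndufaf6 was 10.53, 10.74 and 11 in WT and 10.89, 11.05 and 11.24 in KO, and its groups overlapped (0.30, SE 0.07, adjusted p = 0.000364). Ndufaf7, a methyltransferase that modifies a core subunit, was 0.21 higher (adjusted p = 0.000994).

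All 4 subunits of complex II, succinate dehydrogenase, were higher in total ChREBP-KO, with a median of 0.30. Sdhb, the iron-sulfur subunit, had 16.83, 17.00 and 17.15 in WT and 17.33, 17.44 and 17.53 in KO (0.45, SE 0.04, adjusted p = 5.47e-10). Sdhc, one of the membrane anchors, had 14.09, 14.33 and 14.59 in WT and 14.60, 14.66 and 14.82 in KO (0.36, SE 0.06, adjusted p = 3.64e-06). Neither gene's groups overlapped. The other anchor, Sdhd, was 0.23 higher (adjusted p = 0.00104), but 0.13 and not called under the processed-signal scaling (adjusted p = 0.153). Sdha, the flavoprotein that oxidizes succinate, was 0.14 higher (adjusted p = 0.0266). The call for Sdha was lost without total-line WT replicate 2 (0.12, adjusted p = 0.0639) and under the processed-signal scaling (0.06), where 2 of the 4 subunits were called.

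In complex III, 6 of 8 subunits were higher and none was lower, with a median of 0.25. All 8 changes were positive, also under the processed-signal scaling, where 4 were called. The core proteins and the Rieske subunit were all higher. Uqcrc1, core protein 1, whose window with an NRF1 match is printed above, was 16.14, 16.30 and 16.43 in WT and 16.58, 16.75 and 16.81 in KO, without overlap (0.43, SE 0.05, adjusted p = 2.7e-08). Uqcrc2, core protein 2 and the complex III marker of OXPHOS antibody mixtures, was 16.12, 16.33 and 16.58 in WT and 16.45, 16.59 and 16.65 in KO, with overlap (0.27, SE 0.05, adjusted p = 4.85e-05). Uqcrfs1, the Rieske iron-sulfur protein, was 0.32 higher (adjusted p = 0.000112). Among the small subunits, Uqcrb was 0.24 higher (adjusted p = 4.6e-05) and Uqcr10 was 0.16 higher (adjusted p = 0.00232). Under the processed-signal scaling neither was called, at 0.05 (adjusted p = 0.524) and 0.08 (adjusted p = 0.269). The call for Uqcrb was also lost with the median over its probes.

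Of the 11 widely expressed subunits of complex IV, cytochrome c oxidase, 9 were higher, and the median of 0.16 was the smallest among the 5 complexes. Under the processed signal 2 of the 11 were called. Cox7a2l, also known as a factor that joins complex III to complex IV in supercomplexes, had the highest change. Its level was 14.80, 14.90 and 15.08 in WT and 15.07, 15.31 and 15.52 in KO (0.39, SE 0.06, adjusted p = 1.22e-06), so that the groups touched at their edge. Cox4i1, the main isoform of subunit 4, was 17.49, 17.60 and 17.69 in WT and 17.73, 17.78 and 17.85 in KO (0.18, SE 0.04, adjusted p = 0.000373). Ndufa4, which bears a complex I name but is a subunit of complex IV, was 0.12 higher (adjusted p = 0.0348), a call lost without total-line WT replicate 6 (0.09, adjusted p = 0.0914) and under the processed-signal scaling (0.03). Cox6c was 0.16 higher (adjusted p = 0.0142) and turned to -0.02 under the processed-signal scaling.

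**Figure D2:**
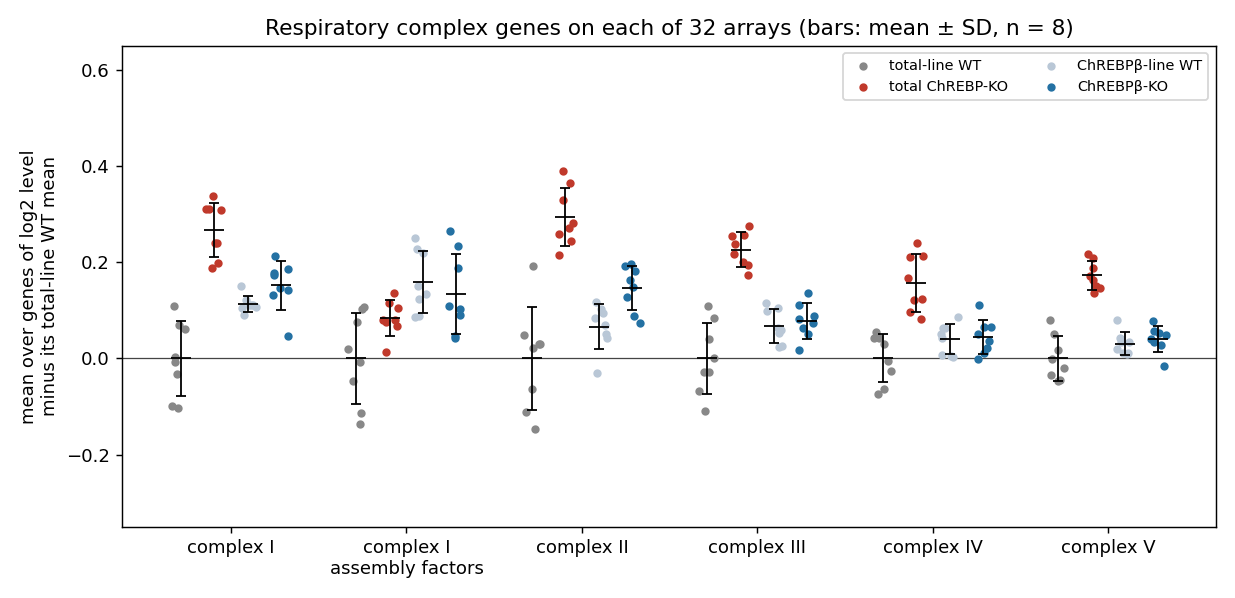
Mean over the genes of each class (x axis) of the log2 level minus that gene's total-line WT mean (y axis), for each of the 32 arrays; points are arrays, bars are group means ± SD (n = 8). Total ChREBP-KO arrays sit between 0.19 and 0.34 for complex I and between 0.14 and 0.22 for complex V, above all total-line WT arrays, whose highest values are 0.11 and 0.08.

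Complex IV subunits 6A, 7A and 8 each exist as a form found in heart and skeletal muscle and a form found widely, and brown adipose tissue is known to express muscle forms of 7A and 8. Cox7a1 had 17.08, 17.37 and 17.57 in total-line WT and 17.78, 17.82 and 17.86 in total ChREBP-KO (0.46, SE 0.05, adjusted p = 2.96e-08). Cox8b had 17.40, 17.50 and 17.60 in WT and 17.84, 17.86 and 18.09 in KO (0.41, SE 0.05, adjusted p = 3.16e-08). In both genes every KO array lay above every WT array, and the changes were 0.46 and 0.44 under the processed-signal scaling. Their wide partners moved less or were not called. Cox7a2 was 0.24 higher (adjusted p = 6.87e-05), but 0.10 and not called under the processed-signal scaling (adjusted p = 0.151). Cox8a stood at -0.10 (SE 0.04, adjusted p = 0.0509), with 0.04 under the processed-signal scaling. The 60-base probes of the paired forms shared a stretch of at most 4 bases for 7A and 6 for 8.

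Cox6a2, the muscle form of subunit 6A, did not behave like the other muscle forms. Its level was 12.72, 15.27 and 15.67 in total-line WT and 14.31, 14.92 and 15.83 in total ChREBP-KO, with full overlap (0.18, SE 0.86, adjusted p = 0.89). That SE shares its spread over the 4 groups. The SD of Cox6a2 was 1.01 in total-line WT and 0.49 in total ChREBP-KO, but 2.9 in ChREBPβ-line WT and 1.91 in ChREBPβ-KO. In ChREBPβ-line WT the level of Cox6a2 was 5.13, 7.46 and 11.63 and in ChREBPβ-KO 5.45, 6.87 and 10.70. The lines therefore differed in Cox6a2 by far more than KO and WT did within a line. Within each line it followed the mean of the 10 muscle markers: over the 16 total-line arrays Pearson's r was 0.965 and Spearman's rho 0.941, and over the 16 ChREBPβ-line arrays 0.987 and 0.95. Each permutation p was 1e-05, the smallest that 100000 resamples can give, and 3e-05 after Benjamini-Hochberg adjustment over 6 relations. Without the 2 arrays farthest from the median of the muscle mean, r was 0.925 and 0.981. For Cox7a1 the same r was 0.0842 and -0.345, and for Cox8b 0.0623 and -0.207, with rho from -0.332 to 0.053 and adjusted permutation p for r from 0.38 to 0.84. Each relation pooled the KO and WT arrays of a line. Because the total-line groups of Cox7a1 and Cox8b did not overlap, these values do not show the relation within a group.

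The wide partner Cox6a1 was 18.72 on every array of 3 groups and 18.85 on every total ChREBP-KO array. Quantile normalization sets a value by rank, and this probe ranked 2 in brightness on every total ChREBP-KO array and 3 or 4 on the others, where it drew 1 shared value. Its 0.12 difference (adjusted p = 0.000115) therefore carries no spread between arrays. Under the processed-signal scaling it was 0.13 (adjusted p = 0.178). Of 3 other tissue forms, 2 were not called, among them Cox4i2, the lung form of subunit 4, at 0.08 (adjusted p = 0.322). Cox6b2, known as the testis form of subunit 6B, was called, with 8.21, 8.35 and 8.49 in WT and 9.04, 9.17 and 9.49 in KO (0.84, SE 0.07, adjusted p = 9.86e-12). It was named after its value had been seen.

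**Figure D3:**
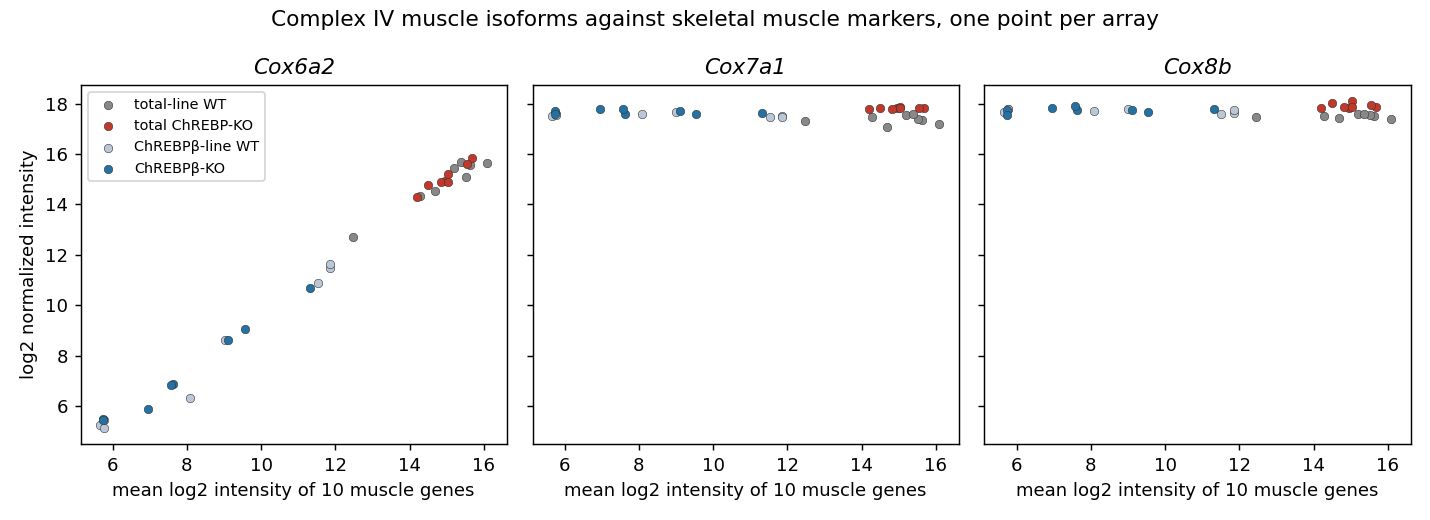
The 3 muscle isoforms of complex IV subunits on each of the 32 arrays against the mean log2 level of 10 skeletal muscle markers. Points are arrays coloured by group (x and y axes, log2 intensity). Cox6a2 climbs with the muscle mean within both lines, whereas Cox7a1 stays between 17.08 and 17.86 and Cox8b between 17.40 and 18.09 on the 32 arrays.

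Complex V, the ATP synthase, had 10 of 15 subunits higher and 1 lower, with a median of 0.21; the processed signal gave 7 higher and 2 lower. In the catalytic head 4 of 5 were higher, in the peripheral stalk 3 of 4, and among the small membrane subunits 2 of 3. Atp5h, subunit d of the peripheral stalk, had 16.81, 16.93 and 17.06 in WT and 17.24, 17.30 and 17.38 in KO, without overlap (0.37, SE 0.04, adjusted p = 5.01e-10). Atp5a1, the α subunit of the head and the complex V marker of OXPHOS antibody mixtures, had 17.39, 17.53 and 17.58 in WT and 17.64, 17.67 and 17.71 in KO, also without overlap (0.17, SE 0.04, adjusted p = 0.00094). Atp5a1 was 0.12 under the processed-signal scaling and no longer called (adjusted p = 0.0903).

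The c ring, the rotor through which protons pass, is built from 1 mature protein that 3 genes encode, and their transcripts went different ways. Atp5g1 had 12.16, 12.46 and 12.59 in WT and 12.63, 12.74 and 13.01 in KO (0.36, SE 0.07, adjusted p = 3.14e-05). Atp5g2 changed by 0.04 (adjusted p = 0.558). Atp5g3 had 15.61, 15.72 and 15.90 in WT and 15.14, 15.35 and 15.65 in KO (-0.33, SE 0.07, adjusted p = 0.000333). Only the groups of Atp5g1 were apart, and the processed-signal scaling kept the directions of Atp5g1 (0.33) and Atp5g3 (-0.39). Of the 4 names that match the rule without being subunits of the 5 complexes, 1 was higher: Atp5s, a coupling factor also named Dmac2l, at 7.04, 7.31 and 7.44 in WT and 7.61, 8.25 and 8.71 in KO (0.95, SE 0.11, adjusted p = 1.02e-08), likewise named after its value had been seen. Ndufa4l2, the hypoxia-induced paralog of Ndufa4, stood at 0.16 and was not called (adjusted p = 0.0973).

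**Figure D4:**
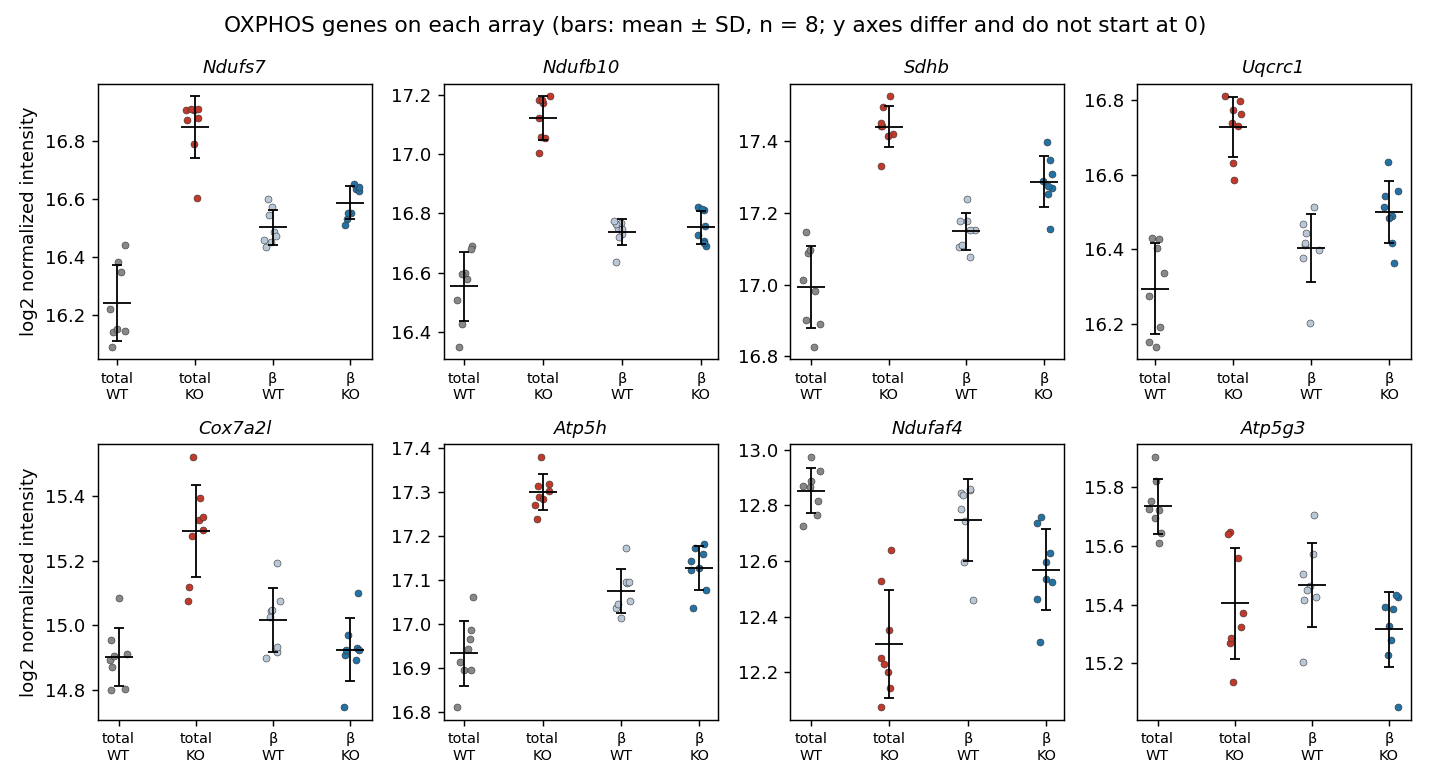
Log2 levels (y axis) of Ndufs7, Ndufb10, Sdhb, Uqcrc1, Cox7a2l, Atp5h, Ndufaf4 and Atp5g3 in the 4 groups; points are arrays and bars are means ± SD (n = 8). For Ndufb10 the total ChREBP-KO arrays start at 17.00, above every array of the other groups, and for Ndufaf4 they end at 12.64, below every total-line WT array.

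In ChREBPβ-KO the same genes stayed close to their WT levels. Of the 91, 1 was higher and 1 lower, 1.1% each, against 1.37% and 1.33% of all genes tested, so the members' share was no larger than the background. The median change was 0.03, with 61 positive and 29 negative, and the median within wash batches was 0.03, 0.02, 0.04 and 0.01. The higher gene was Ndufv1, at 16.68, 16.74 and 16.77 in ChREBPβ-line WT and 16.80, 16.89 and 16.93 in ChREBPβ-KO (0.16, SE 0.03, adjusted p = 0.00845). All 8 KO arrays lay above all 8 WT arrays, which held for 1 of the 91 members and 0.228% of all genes; under the processed-signal scaling the change was 0.15 (adjusted p = 0.099). The lower gene was Atp5sl, known as an assembly factor of complex I (Dmac2) despite its name, at 12.28, 12.53 and 12.66 in WT and 12.01, 12.28 and 12.42 in KO (-0.24, SE 0.06, adjusted p = 0.0184). Its groups overlapped, and the call was lost with wash batch as a block. No member had all its KO arrays below its WT arrays, which held for 0.204% of all genes. With the processed signal, where 1.32% of all genes were lower, the calls among the members were 0 higher and 1 lower (Atp5sl).

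Of the genes with the largest changes in total ChREBP-KO, Atp5s stood at 0.05 in ChREBPβ-KO (SE 0.11, adjusted p = 0.924). Cox6b2 had the highest log2 fold change of any member in ChREBPβ-KO. Its level was 8.66, 8.73 and 8.88 in WT and 8.76, 8.91 and 9.24 in KO (0.21, SE 0.07, adjusted p = 0.112), with all 8 KO arrays above the WT mean. Neither gene was called. Ndufs7 was 16.44, 16.48 and 16.60 in ChREBPβ-line WT and 16.51, 16.59 and 16.65 in ChREBPβ-KO (0.09, SE 0.05, adjusted p = 0.502). Ndufb10 was 16.64, 16.75 and 16.77 in WT and 16.69, 16.74 and 16.82 in KO (0.02, SE 0.04, adjusted p = 0.941). Sdhb stood at 0.14 (SE 0.04, adjusted p = 0.0901), with all 8 KO arrays above the WT mean. Cox7a1 was 17.46, 17.53 and 17.67 in WT and 17.57, 17.67 and 17.78 in KO (0.12, SE 0.05, adjusted p = 0.314), and Cox8b 0.03 (adjusted p = 0.874). Ndufaf4 was 12.46, 12.81 and 12.86 in WT and 12.31, 12.57 and 12.76 in KO, -0.18 with an adjusted p of 0.24.

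The difference between the KO effects was tested directly. For 54 of the 91 members (59.3%) the KO effect was lower in the ChREBPβ line than in the total line, against 13.1% of all genes, and for 1 it was higher, against 12.2%. The median of these differences was -0.20. By complex the effect was lower for 25 of 36 complex I subunits, 2 of 4 of complex II, 6 of 8 of complex III, 6 of 11 of complex IV and 8 of 15 of complex V. For Ndufb10 the difference was -0.55 (SE 0.06, adjusted p = 4.01e-08), for Ndufs7 -0.52 (SE 0.07, adjusted p = 1.46e-06) and for Cox7a2l -0.48 (SE 0.08, adjusted p = 3.22e-05). The 1 higher value was that of Ndufaf4, which fell further in total ChREBP-KO (0.37, SE 0.10, adjusted p = 0.00824). With the processed signal 17 of the 91 were lower, against 11.5% of all genes (13.1% were higher), so the size of the count rested on the scaling.

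The WT groups of the lines also differed, both in OXPHOS genes and in markers of other cell types. Compared with total-line WT, ChREBPβ-line WT had 40 members higher (44.0%) and 3 lower (3.3%), against 24.8% and 14.1% of all genes, with a median of 0.09. The 3 lower were Cox6a2 (-6.78, SE 0.86, adjusted p = 2.1e-07), Atp5g3 (-0.27, adjusted p = 0.00355) and Sdha (-0.13, adjusted p = 0.0341). The size for Cox6a2 may be limited by background, since its level went down to 5.13 in ChREBPβ-line WT. At its dimmest this probe ranked 33201 of 37306 in brightness. All 10 muscle markers were lower in ChREBPβ-line WT, by log2 fold changes from -7.09 to -4.57. These sizes are limited by background, since Ckm, Myh1, Myh4 and Actn3 were well above it on 5 of 8 ChREBPβ-line WT arrays each. Of 5 lymphocyte markers 3 were higher there (median 0.57), of 10 brown adipocyte markers 1 was higher and 4 were lower (median -0.03), and of 8 liver markers 1 was higher and 1 lower (median 1.73). The changes of the muscle markers between KO and WT ran from -0.30 to 0.29 in the total line and from -1.45 to -0.27 in the ChREBPβ line, where, as in the total line, limma called none at an adjusted p under 0.05 and 0 had an unadjusted p under 0.05. The mean muscle and liver marker levels entered as covariates left 5 members higher and 0 lower in ChREBPβ-line WT by limma, and 22 higher and 1 lower at an unadjusted p under 0.05. The median difference between the WT groups was from 0.08 to 0.13 over 12 alternative settings, these covariates included. Line and tissue content cannot be told apart in this comparison. As a mean over the subunits of the 5 complexes, set to 0 in total-line WT, the level was 0.08 ± 0.02 in ChREBPβ-line WT, 0.11 ± 0.04 in ChREBPβ-KO and 0.23 ± 0.05 in total ChREBP-KO (SD, n = 8 each).

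Other genes of the pathway that the naming rule leaves out were read from lists. Of 40 assembly factors with other names, 21 were higher (52.5%, against 23.0% of all genes) and 7 lower (17.5%, against 21.1%) in total ChREBP-KO, with a median of 0.18. Highest were Bcs1l, which inserts the Rieske protein into complex III (0.59, adjusted p = 4.05e-09), and Cox14, a complex IV factor (0.59, adjusted p = 1.02e-08). Lowest were Cox19, a copper-handling factor of complex IV (-0.89, adjusted p = 6.93e-13), and Sdhaf2, which attaches flavin to Sdha (-0.37, adjusted p = 3.45e-05). The share of lower calls was thus no larger than over all genes. All 7 electron carriers and further subunits tested were higher, led by Etfb (0.74, adjusted p = 2.06e-13) and Etfa (0.61, adjusted p = 7.7e-11), the paired subunits of the flavoprotein that brings electrons from fatty acid oxidation to ubiquinone.

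Of 11 regulators of mitochondrial biogenesis, 3 were higher (27.3%) and 1 was lower (9.09%) in total ChREBP-KO, shares near and below those of all genes (23.0% and 21.1%). Ppargc1a, the coactivator PGC-1α, was 1.18 higher (SE 0.18, adjusted p = 2.31e-06) and Polg, the mitochondrial DNA polymerase, 0.49 higher (adjusted p = 3.2e-08). Gabpa, the DNA-binding subunit of the ETS factor also called NRF2, was lower (-0.40, adjusted p = 1.09e-06), and in ChREBPβ-KO it was the 1 gene of these 3 lists that was called (0.27, adjusted p = 0.00569). In ChREBPβ-KO none of the 40 assembly factors and none of the 7 carriers was called by limma; at an unadjusted p under 0.05, 8 of the 40 were lower and 1 of the 7 was higher, where 7.22% and 6.89% of all genes were. Among 10 brown adipocyte markers, 4 were higher and 2 lower in total ChREBP-KO, with Dio2 at 2.19 (adjusted p = 2.41e-06), Elovl3 at -3.16 (adjusted p = 1.25e-07) and Ucp1 at -0.09 (adjusted p = 0.109). Those markers did not move one way alongside the OXPHOS genes, and their part in the shift was not tested.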

How the data were processed

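Brown adipose tissue RNA was read on 32 one-colour Agilent SurePrint arrays, which carry no read depth; the number of arrays and the signal over background limit precision. The authors deposited, for each array, the Feature Extraction 10.10.1.1 output with the intensity of every spot, and a table of normalized log2 values. Per the labels and the study's methods, the authors took median intensities, kept probes detected on enough arrays, and applied log2 and quantile normalization. Agreement with that table was checked: rebuilt values differed from the deposited log2 values by 0.00298 on average in absolute size over its 37304 probes.

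Values were rebuilt from the scanner output: log2 median intensity, quantile normalization, spots with an outlier flag left out (3 among members), median over repeated probes, and probes kept when detected on at least 26 of 32 arrays or 6 of 1 group (39985 of 59305 spots, 37306 probes). Each gene was read from its brightest probe. limma 3.58.1 in R 4.3.3 fitted 4 group means over all 32 arrays, with Benjamini-Hochberg adjustment over all probes and a threshold of 0.05. Cox4i1, Sdhd and Ndufs1 had 7 arrays in ChREBPβ-line WT, since 1 spot each was left out. Intensity alternatives used Agilent's processed signal at each array's 75th percentile and normexp with an offset of 50; others changed the filter, wash batch (4), slide (15), marker covariates, probe rule and arrays. The steps were tested on simulated data. All 91 genes matched a current symbol, but the accession of the Cox7c probe matched a copy, Gm12338, so Cox7c is uncertain. Replicate numbers were not taken as pairs, because the labels tie nothing to a number and not every same-numbered pair correlated over 0.1 (0 of 8 in the total line, 6 of 8 in the ChREBPβ line). The members and lists were chosen with earlier results of these data known. Genes were named by rule: complex IV isoforms, the 2 highest and 2 lowest called genes of each class with all 8 KO arrays on one side of the WT mean, every member called in ChREBPβ-KO, those in the study's OXPHOS antibody mixture, and those whose probes disagreed. Figures were drawn with matplotlib 3.10.9.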

Additional observations from a re-analysis of the deposited data

Results flagged for a closer look

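Of 180 groups of values examined, 12 held an array that lay apart from the other 7, given here as its gap over the group's range; about 1 in 20 groups is expected by chance. In total-line WT these were Atp5g1 (0.577) and Cox4i1 (0.558), both low in replicate 6, and Cox6a2 (0.543) in replicate 8. In total ChREBP-KO it was Ndufs7 (0.604) in replicate 7. In ChREBPβ-line WT these were Ndufa4l2 (0.542, replicate 6), Ndufb10 (0.616, replicate 3), Sdhc (0.738, replicate 7), Uqcrc1 (0.558, replicate 8) and, in replicate 4, the mean of complex V (0.543) and of all subunits (0.611). In ChREBPβ-KO these were Sdha (0.541) and the mean of the 4 other matching names (0.556), both in replicate 4.

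The KO effect differed between the lines for 23 named genes by the limma test of the difference itself, given as the log2 effect in the ChREBPβ line minus that in the total line. In complex I these were Ndufb10 (-0.55), Ndufs7 (-0.52), Ndufv1 (-0.26), Ndufb2 (-0.26) and Ndufab1 (-0.25), and among its assembly factors Ndufaf7 (-0.19) and Ndufaf4 (0.37). In complex II they were Sdhb (-0.31) and Sdhc (-0.30). In complex III they were Uqcrc1 (-0.34), Uqcrfs1 (-0.25), Uqcr10 (-0.24), Uqcrc2 (-0.21) and Uqcrb (-0.21). In complex IV they were Cox7a2l (-0.48), Cox8b (-0.38), Cox7a1 (-0.34), Cox7a2 (-0.20), Cox4i1 (-0.19) and Cox6a1 (-0.12), the last without spread between arrays. In complex V they were Atp5g1 (-0.36) and Atp5h (-0.31), and Atp5sl differed by -0.34. All of these differences except that of Ndufaf4 were negative, and Ndufaf4 fell less in ChREBPβ-KO than in total ChREBP-KO. Many of these genes were named for the highest or lowest changes in total ChREBP-KO. The difference subtracts that same change, so the choice of genes favours these signs.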

How the results depend on the processing

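With the processed signal at the 75th percentile, members higher in total ChREBP-KO numbered 41 and their median was 0.13, members higher in ChREBPβ-KO numbered 0, and 17 members had a lower effect in the ChREBPβ line, the median difference being -0.12. The median change of all genes moved by at most 0.054 from 0 under any scaling. Cox6c (-0.02) and Ndufb8 (-0.01) turned direction there, and with the median over a gene's probes Ndufb8 (-0.14) and Ndufab1 (0) did. That probe rule gave 6 members lower in total ChREBP-KO, 3 higher in ChREBPβ-KO and 5 lower in ChREBPβ-line than total-line WT. The deposited table gave 2 higher in ChREBPβ-KO and a median difference of -0.26. No member was lower in ChREBPβ-KO with wash batch as a block or with the 2 groups alone (0 each). Muscle and liver covariates left 5 higher and 0 lower in the comparison of the WT groups. The median of that comparison stayed from 0.08 to 0.13 over 12 settings. The cause was not tested.

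Leaving out 1 array at a time gave 65 to 71 members higher, 2 to 4 lower and a median of 0.20 to 0.24 in total ChREBP-KO; 1 higher, 1 lower and 0.02 to 0.03 in ChREBPβ-KO; 1 higher, 49 to 57 lower and -0.22 to -0.19 for the difference; and 32 to 42 higher, 2 to 5 lower (5 without total-line WT replicate 2) and 0.08 to 0.10 between the WT groups. With the replicate number as a block, 70 members were higher and 3 lower in total ChREBP-KO with a median of 0.23, and 1 and 1 in ChREBPβ-KO. Same-numbered arrays correlated from -0.308 to 0.0929 in the total line and from -0.264 to 0.583 in the ChREBPβ line, and 1 of 32 was closest to its own number.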
